A study of Mus musculus with 4 samples.

Results

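The genes described here are 32 genes of cholesterol and fatty acid synthesis that are under the control of SREBP transcription factors. They were chosen by gene symbol from a table of 14435 genes, and all 32 had a row and passed the filter on low counts that left 11035 genes in the test. They fall into 18 enzymes of cholesterol synthesis, 1 enzyme of the prenyl branch (Ggps1), 5 genes of sterol sensing and transport, and 8 enzymes of fatty acid synthesis. The RNA is from the mouse macrophage line RAW264.7, in 2 groups. The first was transfected with an shRNA against Mettl3, which encodes the catalytic subunit of the N6-methyladenosine writer of mRNA (shMettl3, 2 libraries), and the second with a nonspecific shRNA (Control, 2 libraries). All 4 libraries came from cells given E. coli lipopolysaccharide (LPS) for 12 h, so each value below is a level after LPS and no untreated cells enter the comparison. The labels do not say whether the libraries of a group are separate cultures or how many cell clones each shRNA population holds, so each p-value reflects only how these 4 libraries spread, which may be technical. The treatment field of shMettl3 replicate 2 reads METTL4, whereas its title and the design text of the series name METTL3.

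Cells make cholesterol from acetyl-CoA through mevalonate, farnesyl diphosphate, squalene and lanosterol, and fatty acids from acetyl-CoA through malonyl-CoA. When membrane sterol is low, the escort protein SCAP carries SREBP from the endoplasmic reticulum to the Golgi, where it is cut and its active part moves to the nucleus. INSIG proteins hold SCAP back when sterol is high, and INSIG1 is itself a product of an SREBP target gene. In macrophages this programme supplies membrane and is known to be remodelled by signals from Toll-like receptors and interferons.

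Estimated counts totalled 16342313 and 16767622 in the shMettl3 libraries, against 17142599 and 17193639 in the Control libraries. Values are given as CPM, counts per library total scaled by TMM factors, and differences as log2 fold changes of shMettl3 over Control with their standard errors (SE, n = 2 libraries a group). Called genes are those with a Benjamini-Hochberg adjusted p under 0.05 in the quasi-likelihood test of edgeR, adjusted over the 11035 tested genes. The targeted gene Mettl3 had 11.5 and 11.2 CPM in the shMettl3 libraries, against 30.9 and 29.9 CPM in the Control libraries (log2 fold change -1.42, SE 0.10). Of the macrophage markers, 7 of 10 fell and 1 rose, where 22.3% of all tested genes fell and 21.4% rose. Ptprc rose by 0.57 on the log2 scale, and Fcgr1 (0.83) and Spi1 (-0.06) were not called. The summed level of the 10 markers was 11883 and 11815 TPM in the shMettl3 libraries, against 17523 and 16943 TPM in the Control libraries. Lyz2 made the largest part, with 5955 and 5779 TPM in the shMettl3 libraries, against 10293 and 9350 TPM in the Control libraries. TPM is scaled to transcript length. Fibroblast markers were near 0, with summed counts over the 5 markers measured of 71 and 21 in the shMettl3 libraries, against 5 and 5 in the Control libraries. Only Pdgfrb of these markers passed the filter, and it rose. Col1a1, Col1a2 and Col3a1 had between 15 and 17 counts each in shMettl3 replicate 1 and at most 1 in the other 3 libraries. Lymphocyte markers and markers of adipocytes and hepatocytes summed to at most 2 counts in any library. The part of the macrophage and fibroblast markers in the results below was not tested. In bulk samples, fewer cells of a type and less RNA per cell cannot be told apart.

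The 32 genes moved in both directions. 6 rose (Hmgcs1, Idi1, Sqle, Sc5d, Ggps1 and Insig1), 12 fell and 14 did not pass the test. Across all tested genes 43.7% were called, 21.4% up and 22.3% down. The share of the 32 genes that rose, 18.8%, lay near that background, and the share that fell was 37.5%. Their median log2 fold change was -0.21, against 0.01 for all tested genes. The groups did not overlap for 27 of the 32 genes, 10 higher and 17 lower in shMettl3, where 73.4% of all tested genes did not overlap (37.1% higher, 36.3% lower). Tested against a 1.5-fold change, 2 of the 32 genes fell, Tm7sf2 and Scd1, and 0 rose in edgeR's test. In that test 8.63% of all genes were called, 4.87% as lower and 3.76% as higher. At an unadjusted p below 0.05 in that test 1 of the 32 genes was higher and 3 were lower. At the same limit 711 of all 11035 tested genes were higher and 783 lower. A gene not called there may still differ by more than 1.5-fold. Insig1, 1.69-fold higher in shMettl3, and Pmvk, 1.73-fold higher in Control, were not called. Single libraries moved the count of genes that fell, which was 7 when shMettl3 replicate 1 was left out and 20 when Control replicate 1 was.

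**Figure D1:**
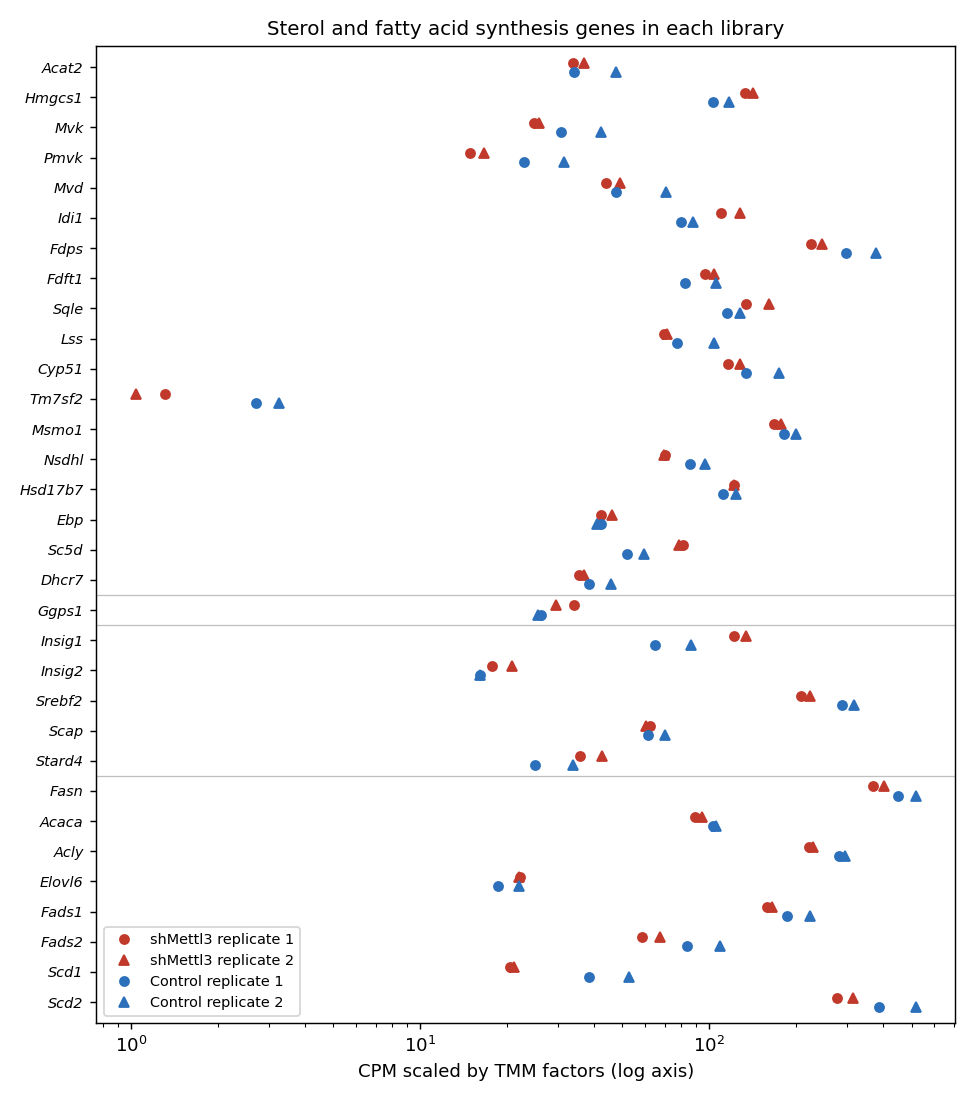
CPM scaled by TMM factors (x axis, log scale) for each of the 32 genes (y axis, in pathway order) in the shMettl3 libraries (red) and the Control libraries (blue), with circles for replicate 1 and triangles for replicate 2. The shMettl3 points lie right of both Control points for 10 genes, such as Insig1, and left of both for 17, such as Scd1. Grey lines part the cholesterol enzymes, Ggps1, the sensing genes and the fatty acid enzymes.

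The sterol sensing genes held the largest rise of the 32. Insig1, whose protein retains SCAP in the endoplasmic reticulum, had 122 and 134 CPM in the shMettl3 libraries, against 65.0 and 86.2 CPM in the Control libraries. Both shMettl3 libraries were above both Control libraries, a rise of 0.76 on the log2 scale (SE 0.14, 1.69-fold, edgeR adjusted p = 0.00608). Srebf2, which encodes the SREBP that chiefly drives the cholesterol genes, had 207 and 224 CPM in the shMettl3 libraries, against 288 and 316 CPM in the Control libraries. It fell in both libraries, with a log2 fold change of -0.49 (SE 0.08, edgeR adjusted p = 5.06e-04). The other 3 genes of the group were not called. Insig2, the paralogue of Insig1, had 17.7 and 20.7 CPM in the shMettl3 libraries, against 16.1 and 16.0 CPM in the Control libraries. Its log2 fold change was 0.26 (95% interval 0.01 to 0.51). Stard4, which carries sterol between membranes, had 35.8 and 42.5 CPM in the shMettl3 libraries, against 24.9 and 33.8 CPM in the Control libraries. The groups did not overlap, and the log2 fold change of 0.42 had an interval of 0.02 to 0.81. It was called in 9 of 15 alternative fits, and was 0.65 when Control replicate 2 was left out and 0.20 when Control replicate 1 was. Scap, the escort gene itself, had 62.1 and 60.2 CPM in the shMettl3 libraries, against 61.4 and 70.3 CPM in the Control libraries. The groups overlapped, and the log2 fold change was -0.11 (interval -0.29 to 0.07). It was called as lower, at -0.21, without Control replicate 1.

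Promoter sequence is shown for 4 genes taken from both directions of change: Insig1 and Hmgcs1, which rose, and Srebf2 and Fasn, which fell. Other genes of the set changed more than Hmgcs1 and Fasn, as given below. RefSeq promoter sequence on GRCm38.p6 was at hand for 25 of the 32 genes, and the 250 bases before the annotated start were searched on both strands for 4 motifs. These were the sterol regulatory element TCACNCCAC, the NF-Y box CCAAT, the Sp1 GC box GGGCGG and the E-box CACGTG. Capitals mark each match, and lower case all other bases. Each sequence runs 5′ to 3′ on the strand of the gene and ends at the base before the start. Insig1 lies at chr5:28071162-28071411 on the plus strand, Hmgcs1 at chr13:119690101-119690350 on the plus strand, Srebf2 at chr15:82147019-82147268 on the plus strand and Fasn at chr11:120824548-120824797 on the minus strand. These are coordinates of GRCm38.p6, a later build than the mm9 of the submitters' notes.
Insig1: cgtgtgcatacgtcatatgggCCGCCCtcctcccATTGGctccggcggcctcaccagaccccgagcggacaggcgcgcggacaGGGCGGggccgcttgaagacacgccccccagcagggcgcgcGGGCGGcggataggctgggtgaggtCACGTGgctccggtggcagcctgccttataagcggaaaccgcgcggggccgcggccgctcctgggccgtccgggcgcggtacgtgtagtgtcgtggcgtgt
Hmgcs1: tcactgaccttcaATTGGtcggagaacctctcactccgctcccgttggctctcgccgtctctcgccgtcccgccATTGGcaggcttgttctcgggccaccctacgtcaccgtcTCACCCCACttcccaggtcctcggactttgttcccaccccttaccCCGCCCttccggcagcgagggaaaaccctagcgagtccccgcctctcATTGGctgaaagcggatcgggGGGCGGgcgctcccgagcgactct
Srebf2: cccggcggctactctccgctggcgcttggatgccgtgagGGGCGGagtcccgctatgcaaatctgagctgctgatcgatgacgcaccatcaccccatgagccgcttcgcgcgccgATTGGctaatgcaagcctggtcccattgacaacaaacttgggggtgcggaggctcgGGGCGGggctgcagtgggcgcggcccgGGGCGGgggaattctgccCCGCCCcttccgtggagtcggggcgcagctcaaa
Fasn: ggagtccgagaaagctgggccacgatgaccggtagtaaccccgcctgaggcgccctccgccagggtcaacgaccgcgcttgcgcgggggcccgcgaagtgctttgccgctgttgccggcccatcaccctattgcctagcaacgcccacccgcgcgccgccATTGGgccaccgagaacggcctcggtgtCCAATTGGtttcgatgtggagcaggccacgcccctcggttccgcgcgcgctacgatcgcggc

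The Hmgcs1 window held the only exact match to the sterol regulatory element among the 25 genes, at -137 to -129 from the start. That was 3.23% of the windows of these genes, against 1.05% of all 32851 promoter windows. Hmgcs1 also had 3 NF-Y boxes and 2 GC boxes. The Insig1 window had 1 NF-Y box, 3 GC boxes and an E-box at -101 to -96. The Srebf2 window had 1 NF-Y box and 4 GC boxes. In the Fasn window there were 3 NF-Y boxes, of which the pair printed as CCAATTGG overlaps on opposite strands, and 0 GC boxes. Among the 25 genes an NF-Y box was present in any window of 19, of which 5 rose, 6 fell and 8 were not called. Counted over windows, since 4 genes have more than 1, 61.3% of the windows of these genes held an NF-Y box, against 33.8% of all windows, and 71.0% held a GC box, against 32.7%. An E-box was present in 5 genes, of which 2 rose, 0 fell in edgeR's test and 3 were not called. It was in 16.1% of the windows of these 25 genes, against 6.02% of all windows. Of all 25 genes with a window, 5 rose, 8 fell and 12 were not called. Whether a motif went with the direction of change was not tested. A match is a run of letters and not a measured binding site. Only the exact letters were counted, so a window without a match may still hold a variant of the motif. Fdps, Fdft1, Sqle, Stard4, Fads1, Scd1 and Scd2 had no window.

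Among the 18 enzymes of cholesterol synthesis 4 rose, 5 fell and 9 were not called, with a median log2 fold change of -0.21. At an unadjusted p below 0.05 in edgeR's test 8 of the 18 were lower and 4 higher, where 2875 of all 11035 tested genes were lower and 2840 higher. The groups did not overlap for 9 of the 18 that were lower, 50%, against 36.3% of all tested genes. The called shares of the 18, 22.2% up and 27.8% down, lay near the 21.4% and 22.3% of all tested genes. The count that fell was 11 without Control replicate 1, and the count that rose was 2 without shMettl3 replicate 2. Along the pathway, Hmgcs1 came before the enzymes that fell, Idi1 and Sqle stood between them and Sc5d came after them. At its entry, Acat2, the cytosolic enzyme that joins acetyl-CoA units, had 33.8 and 36.7 CPM in the shMettl3 libraries, against 34.1 and 47.5 CPM in the Control libraries. The groups overlapped and it was not called. Its log2 fold change of -0.21 (interval -0.61 to 0.19) was 0.042 without Control replicate 2, and -0.44 and called without Control replicate 1. Hmgcs1, which makes hydroxymethylglutaryl-CoA, had 132 and 141 CPM in the shMettl3 libraries, against 103 and 117 CPM in the Control libraries. It rose by 0.32 on the log2 scale (SE 0.08, edgeR adjusted p = 0.00788), and the call was lost without shMettl3 replicate 2. The next 2 enzymes, the kinases that phosphorylate mevalonate in turn, were lower in both shMettl3 libraries. Mvk had 24.8 and 25.7 CPM in the shMettl3 libraries, against 30.6 and 42.0 CPM in the Control libraries (log2 fold change -0.52, SE 0.15). Pmvk had 14.8 and 16.6 CPM in the shMettl3 libraries, against 22.7 and 31.5 CPM in the Control libraries (log2 fold change -0.79, SE 0.16). The edgeR adjusted p was 0.0255 for Mvk and 0.00484 for Pmvk. The Pmvk call held in all 15 alternative fits, whereas that of Mvk was lost in 5, which were FPKM with either pseudocount, TPM, and the fits without either shMettl3 library. Mvk was -0.28 without Control replicate 2.

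The steps that follow mevalonate diphosphate diverged as well. Mvd, the decarboxylase, had 44.0 and 49.0 CPM in the shMettl3 libraries, against 47.4 and 70.8 CPM in the Control libraries. The Control libraries lay far apart, and the log2 fold change of -0.35 had an interval of -1.01 to 0.32. Leaving out Control replicate 1 gave -0.62, which was called, leaving out Control replicate 2 gave -0.034, and Mvd was also called with the replicate block. Idi1, which isomerises isopentenyl diphosphate, had 109.9 and 128 CPM in the shMettl3 libraries, against 79.9 and 87.5 CPM in the Control libraries. It rose by 0.51 (SE 0.09, edgeR adjusted p = 9.03e-04). Fdps, which makes farnesyl diphosphate, had 225 and 245 CPM in the shMettl3 libraries, against 297 and 377 CPM in the Control libraries. It fell by 0.52 (SE 0.11, edgeR adjusted p = 0.00729), and leaving out Control replicate 2 gave -0.34. Ggps1 extends farnesyl diphosphate to the geranylgeranyl diphosphate used to prenylate proteins. It had 34.0 and 29.4 CPM in the shMettl3 libraries, against 26.2 and 25.5 CPM in the Control libraries. Its rise of 0.29 (SE 0.10, edgeR adjusted p = 0.0302) lost its call in DESeq2, without shMettl3 replicate 1 and without Control replicate 2, and it was 0.19 without shMettl3 replicate 1 and 0.45 on the TPM scale.

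In the squalene part, Fdft1, squalene synthase, had 96.9 and 104 CPM in the shMettl3 libraries, against 82.3 and 105 CPM in the Control libraries, and was not called (log2 fold change 0.10, interval -0.16 to 0.36). It was 0.28 and called without Control replicate 2, and -0.076 without Control replicate 1. Sqle, the epoxidase that commits squalene to sterols, had 134 and 161 CPM in the shMettl3 libraries, against 115 and 127 CPM in the Control libraries. It rose by 0.29 (SE 0.10, edgeR adjusted p = 0.036). This call was lost in DESeq2, without shMettl3 replicate 2 (0.15) and without Control replicate 1 (0.20). Lss, which closes the rings to lanosterol, and Cyp51, the lanosterol demethylase, were lower in both shMettl3 libraries but not called. Lss had 69.6 and 71.6 CPM in the shMettl3 libraries, against 77.4 and 104 CPM in the Control libraries. Cyp51 had 115 and 127 CPM in the shMettl3 libraries, against 134 and 174 CPM in the Control libraries. Their log2 fold changes were -0.36 (interval -0.70 to -0.02) for Lss and -0.34 (interval -0.65 to -0.04) for Cyp51. Lss was called in 4 and Cyp51 in 5 of 15 alternative fits. With Control replicate 1 left out both were called, Lss at -0.57 and Cyp51 at -0.53, and with Control replicate 2 left out they were -0.14 and -0.15.

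Of the late enzymes that turn lanosterol into cholesterol, 2 fell and 1 rose. Tm7sf2, a sterol reductase, had 22 and 18 counts in the shMettl3 libraries, against 45 and 54 counts in the Control libraries. This was the lowest count of the 32 genes and its largest fold change, -1.34 on the log2 scale (SE 0.27, edgeR adjusted p = 0.00236). On the log2(FPKM + 1) and log2(TPM + 1) scales, which understate low genes, it was -0.74 and -0.83. Nsdhl, a sterol dehydrogenase, had 70.4 and 69.9 CPM in the shMettl3 libraries, against 85.8 and 96.2 CPM in the Control libraries. It fell by 0.37 (SE 0.08, edgeR adjusted p = 0.00243), or by 0.23 on the TPM scale. Sc5d, the sterol desaturase near the end of the pathway, had 80.8 and 78.2 CPM in the shMettl3 libraries, against 51.8 and 59.2 CPM in the Control libraries. It rose by 0.52 (SE 0.08, edgeR adjusted p = 4.33e-04), the rise with the smallest adjusted p of the 32 genes. Msmo1, Hsd17b7, Ebp and Dhcr7, which oxidise, reduce or isomerise the sterol ring, had log2 fold changes between -0.21 and 0.09 and were not called. Msmo1 had 168 and 177 CPM in the shMettl3 libraries, against 181 and 199 CPM in the Control libraries. Hsd17b7 had 122 and 122 CPM in the shMettl3 libraries, against 111 and 124 CPM in the Control libraries. Only the Hsd17b7 groups overlapped among these 4 genes. Ebp had 42.3 and 45.9 CPM in the shMettl3 libraries, against 42.2 and 40.9 CPM in the Control libraries, and Dhcr7 had 35.3 and 36.8 CPM in the shMettl3 libraries, against 38.2 and 45.6 CPM in the Control libraries. The intervals were -0.31 to 0.02 for Msmo1, -0.11 to 0.22 for Hsd17b7, -0.09 to 0.26 for Ebp and -0.42 to -0.0044 for Dhcr7. When Control replicate 1 was left out, Dhcr7 (-0.35) and Msmo1 (-0.22) were called as lower, and when Control replicate 2 was left out they were -0.088 and -0.080.

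**Figure D2:**
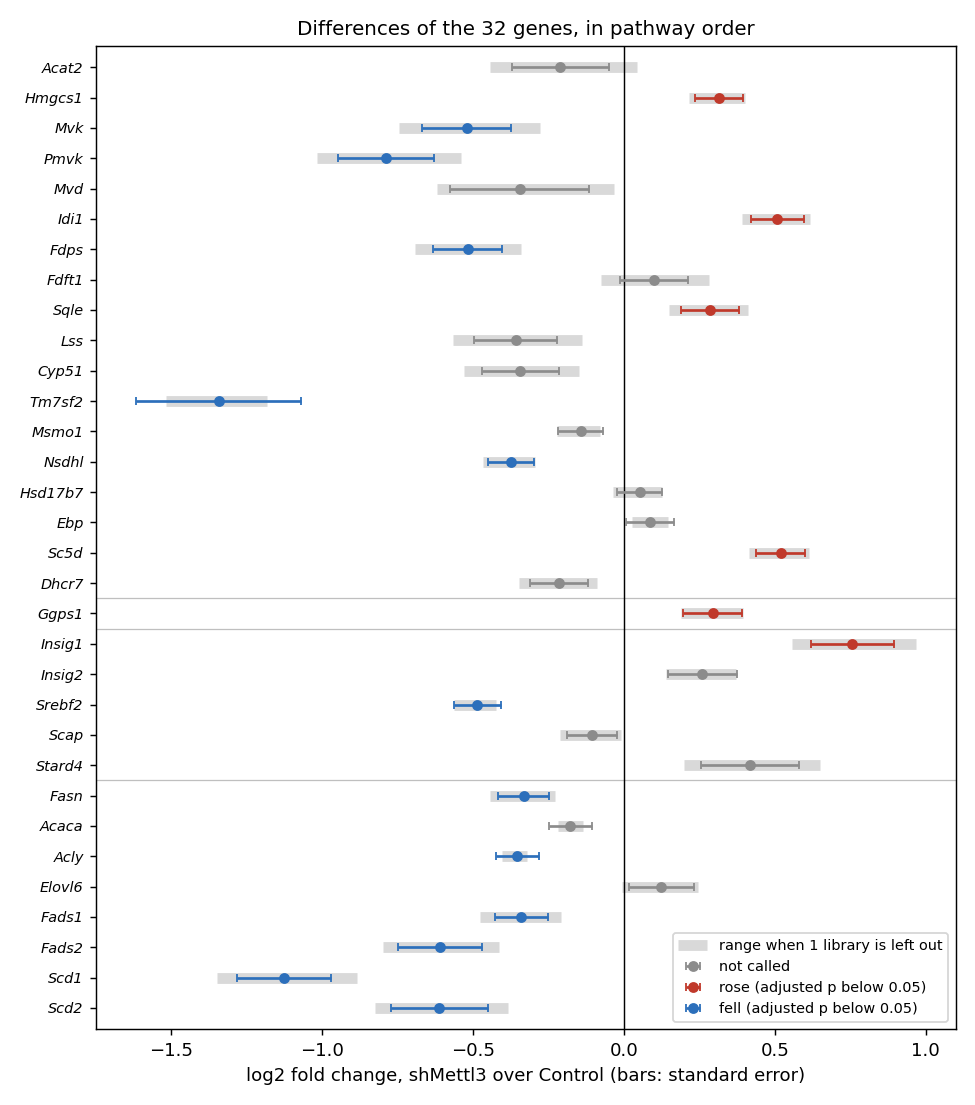
Log2 fold change of shMettl3 over Control (x axis, points, with bars for the standard error) for the 32 genes (y axis), red where the gene rose, blue where it fell and grey where it was not called. Pale bands span the values when 1 library at a time was left out. Idi1 (0.51) stands between Pmvk (-0.79) and Fdps (-0.52), Sc5d (0.52) follows Nsdhl (-0.37), and no fatty acid enzyme stands among the risers.

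The enzymes of fatty acid synthesis differed in the downward direction. 6 of 8 fell, 0 rose and 2 were not called, with a median log2 fold change of -0.35. The share that fell was 75% and the share that rose 0%, against 22.3% and 21.4% of all tested genes, whose median was 0.01. At an unadjusted p below 0.05 in edgeR's test 7 were lower and 0 higher, where 2875 of all 11035 tested genes were lower and 2840 higher. DESeq2 and limma-voom also called 0 of the 8 higher. The count that fell was 2 without shMettl3 replicate 1, and 4 with FPKM or TPM. Acly, which makes cytosolic acetyl-CoA from citrate, had 222 and 229 CPM in the shMettl3 libraries, against 280 and 295 CPM in the Control libraries. Fasn, the fatty acid synthase, had 369 and 400.0 CPM in the shMettl3 libraries, against 449 and 519 CPM in the Control libraries. The log2 fold changes were -0.35 (SE 0.07) for Acly and -0.33 (SE 0.08) for Fasn, and the edgeR adjusted p was 0.00224 for Acly and 0.00869 for Fasn. Acaca, whose product makes malonyl-CoA, had 89.3 and 94.6 CPM in the shMettl3 libraries, against 103 and 105 CPM in the Control libraries. Its groups did not overlap, but its log2 fold change of -0.18 (interval -0.33 to -0.02) was not called. It was called as lower in 3 of 15 alternative fits, which were those with no filter on low counts, with the replicate block and with Control replicate 1 left out, and it was -0.019 on the TPM scale. Elovl6, which elongates palmitate, had 22.1 and 22.0 CPM in the shMettl3 libraries, against 18.5 and 21.9 CPM in the Control libraries (log2 fold change 0.12, interval -0.11 to 0.36).

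All 4 desaturases fell, and the fall of Scd1 was second in size to that of Tm7sf2 among the 32 genes. Scd1, a stearoyl-CoA desaturase, had 20.5 and 21.2 CPM in the shMettl3 libraries, against 38.3 and 52.6 CPM in the Control libraries. It fell by 1.13 on the log2 scale (SE 0.16, edgeR adjusted p = 0.0013), so the Control level was 2.18 times the shMettl3 level. Scd2, its paralogue and the more abundant form here, had 277 and 315 CPM in the shMettl3 libraries, against 385 and 520.1 CPM in the Control libraries. Its log2 fold change was -0.61 (SE 0.16, edgeR adjusted p = 0.0328). Fads1 and Fads2, the desaturases of polyunsaturated fatty acids, fell by 0.34 (SE 0.09) and 0.61 (SE 0.14). Fads2 had 58.6 and 67.4 CPM in the shMettl3 libraries, against 83.7 and 109 CPM in the Control libraries, and Fads1 had 158 and 164 CPM in the shMettl3 libraries, against 186 and 222 CPM in the Control libraries. The edgeR adjusted p was 0.0105 for Fads1 and 0.0151 for Fads2. The calls on Scd1 and Fads2 held in all 15 alternative fits. Without shMettl3 replicate 1 the calls on Acly, Fasn, Fads1 and Scd2 were lost, those on Fasn and Fads1 were also lost with FPKM and TPM, and that on Scd2 with library size alone and with no filter on low counts. On the TPM scale the log2 fold changes were -0.21 for Acly, -0.18 for Fasn and -0.19 for Fads1. Without Control replicate 2 they were -0.21 for Fads1 and -0.38 for Scd2.

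Levels between genes can be compared per transcript length, as TPM. Fdps was the most abundant of the 32 genes, with means of 354 TPM in shMettl3 and 461 TPM in Control, followed by Msmo1 with 171 TPM in shMettl3 and 172 TPM in Control. Tm7sf2 was the least abundant, at 1.47 TPM in shMettl3 and 3.39 TPM in Control. Summed over the 18 cholesterol enzymes, the level was 1198 and 1299 TPM in the shMettl3 libraries, against 1193 and 1405 TPM in the Control libraries, and the groups overlapped. The summed level of the 8 fatty acid enzymes was 420 and 454 TPM in the shMettl3 libraries, against 498 and 586 TPM in the Control libraries, and the groups did not overlap. Scd1 took a small part of that sum, with 7.41 TPM in shMettl3 and 14.6 TPM in Control, against 93.2 TPM in shMettl3 and 128 TPM in Control for Scd2.

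The replicate libraries differed in these genes as a set. In the Control group 29 of the 32 genes were higher in replicate 2 than in replicate 1, by a median of 0.25 on the log2 scale, where 50.7% of tested genes with counts in both libraries were higher and their median was 0.00. In the shMettl3 group 26 of the 32 were higher in replicate 2, by a median of 0.10, where 51.7% of such genes were higher and their median was 0.01. 24 genes were higher in replicate 2 of both groups, 75.0% of the set, against 28.6% of all tested genes. The widest gaps between the Control libraries were in Mvd (0.58), Acat2 (0.48), Pmvk (0.47), Mvk and Scd1 (0.46 each) and Stard4 (0.44). In the Control group Ebp, Ggps1 and Insig2 were the 3 genes not higher in replicate 2. These gaps are part of the standard errors above, which were largest for Tm7sf2, at the lowest counts, and Mvd. Leaving out Control replicate 1 gave a median log2 fold change of the 32 genes of -0.38, and leaving out Control replicate 2 gave -0.084. What sets the libraries apart was not tested.

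**Figure D3:**
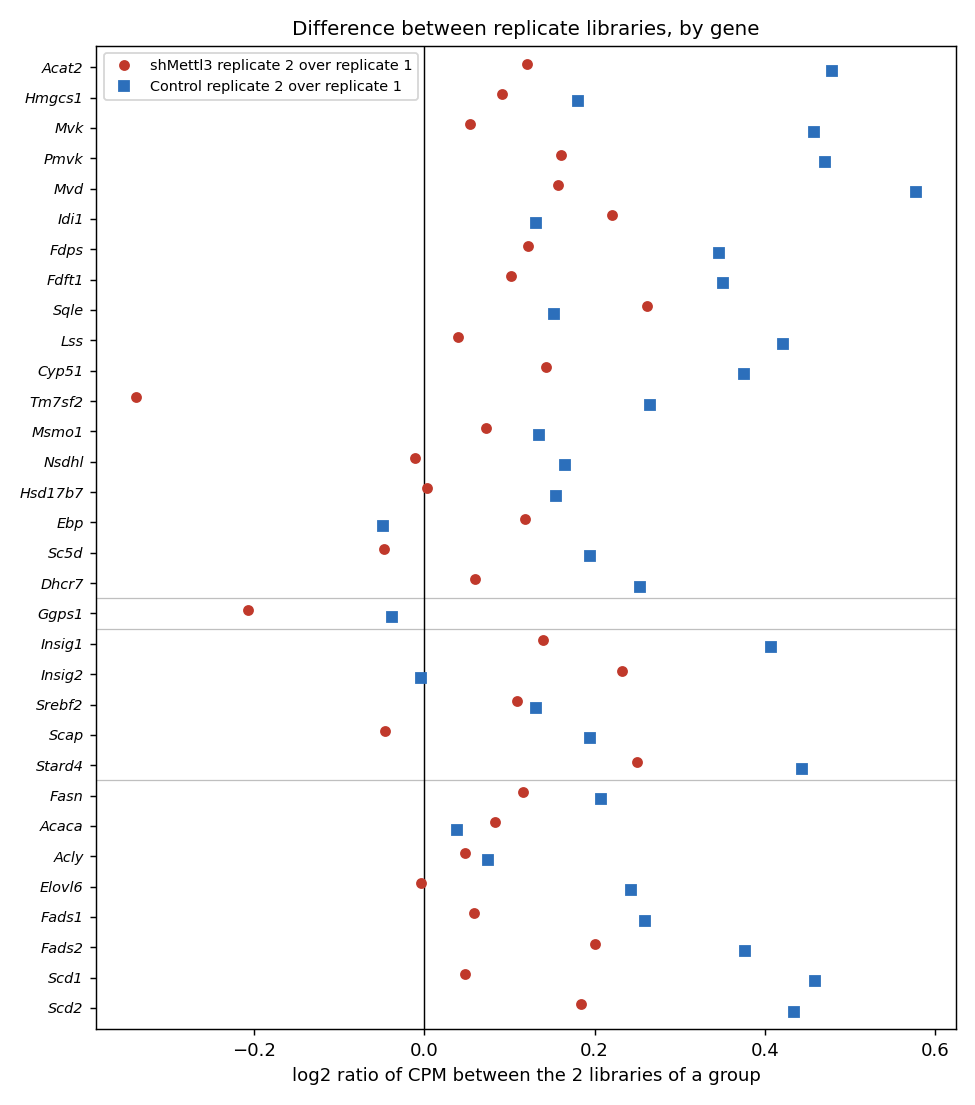
Log2 ratio of CPM between replicate 2 and replicate 1 (x axis) for each of the 32 genes (y axis), as red circles in the shMettl3 group and blue squares in the Control group. Control squares lie right of 0 for 29 genes and reach 0.58 for Mvd, and the shMettl3 circles lie right of 0 for 26.

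The scaling of the libraries shifted the differences upward. The median log2 fold change of all tested genes was 0.01 with TMM factors, 0.11 with library size alone, 0.08 with log2(FPKM + 1) and 0.14 with log2(TPM + 1). Among all calls 48.9% rose with TMM factors, 64.1% with library size alone, 63.1% with FPKM and 70.0% with TPM. For the 32 genes the counts that rose and fell were 6 and 12 with TMM factors, 8 and 11 with library size alone, 8 and 9 with FPKM and 8 and 9 with TPM, and the median was -0.12 with library size alone and -0.061 with TPM. Insig2 and Stard4 were called as rises under these 3 other scalings. Directions of the 18 called genes held under all of them. Scap was 0.042 with TPM and -0.11 with TMM factors.

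**Figure D4:**
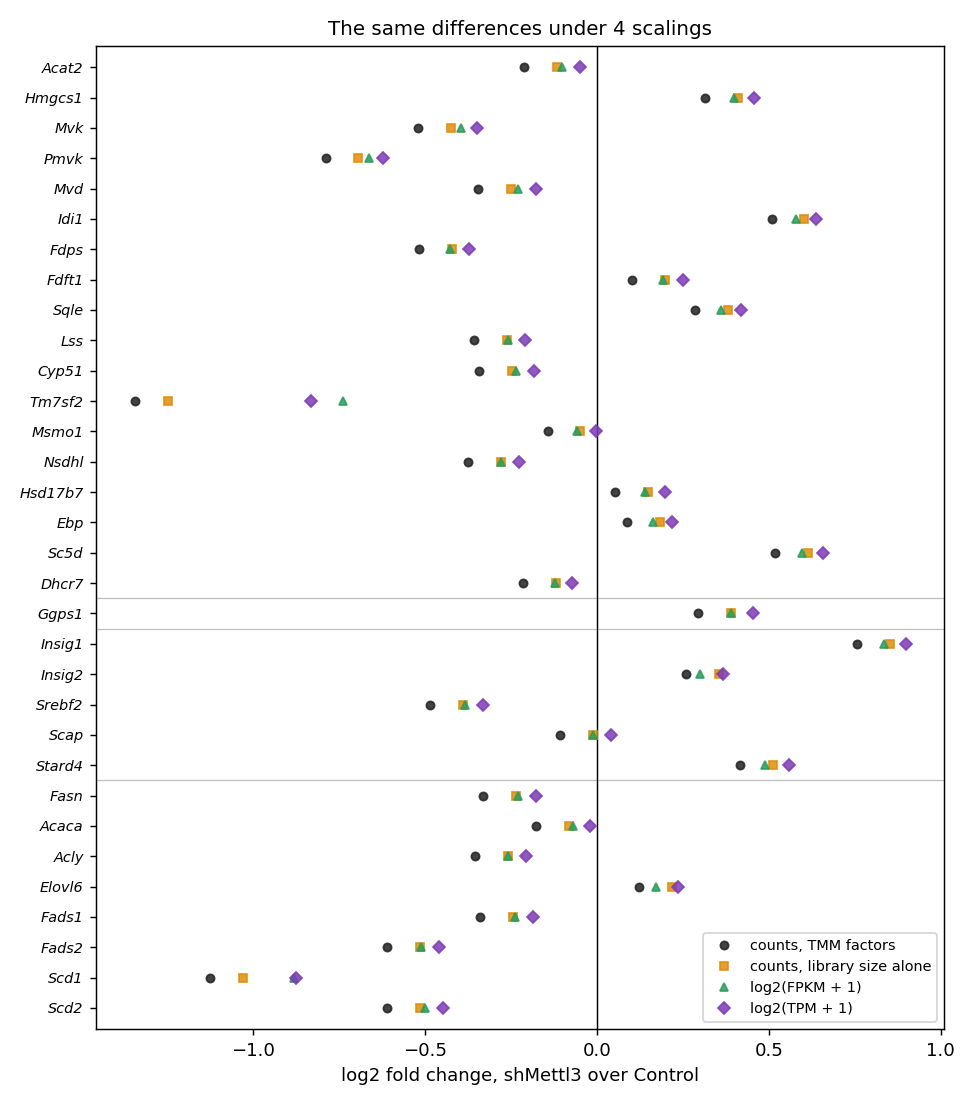
Log2 fold change of shMettl3 over Control (x axis) for the 32 genes (y axis) from counts with TMM factors (black circles), counts with library size alone (orange squares), log2(FPKM + 1) (green triangles) and log2(TPM + 1) (purple diamonds). The TMM marker is the leftmost for each of the 32 genes, and of these 32 only Scap has markers on both sides of 0.

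Some of these genes share sequence with others, which limits what their counts hold. Of the 50-base stretches in the GENCODE M21 transcripts of each gene, the length of the reads, a median of 1.04% also occur in a transcript of another gene. The share was 39.1% for Acat2, all of it with Acat3, and over 5% for 9 genes, among them Acaca (30.4%), Fdft1 (26.5%), Fdps (26.2%), Idi1 (25.3%) and Hmgcs1 (11.6%). Tm7sf2, the gene of largest change and lowest count, shared 9.87%, all of it with Vps51, and Ggps1 shared 9.58%. Scd1 shared 4.56% and Scd2 3.97%, with other Scd genes among the sources. The estimated counts were whole in every library for 27 genes and not for Acat2, Idi1, Fdft1, Scd1 and Scd2, so the counting divided reads for these 5. The sources name no strand setting, and the library type is taken here as one that does not mark strand. Exons of 8 genes overlap an antisense gene, over 18.3% of the exonic bases for Fdft1 (Ctsb), 13.2% for Scap and 12.1% for Hmgcs1. On that reading, reads of the antisense partner cannot be told apart for these 8 genes. Insig1 shared 2.17%, and Pmvk, Nsdhl, Fasn, Acly and Fads1 shared none.

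Of 14 tested genes that process and turn over SREBP 3 rose and 1 fell, with a median of 0.03. The share that rose, 21.4%, was that of all tested genes, and 7.14% fell, against 22.3% of all tested genes. The COPII coat genes Sec23a and Sec24d, whose proteins form the vesicles that leave the endoplasmic reticulum, rose by 0.71 (SE 0.08) and 0.69 (SE 0.09). Rnf145, a ubiquitin ligase of the endoplasmic reticulum linked to sterol control, rose by 0.50 (SE 0.07). With TPM 5 of the 14 genes rose and 0 fell in limma's test, where 32.04% of all tested genes rose and 13.74% fell. Among 35 other enzymes of sterol, isoprenoid and acyl chain metabolism 4 rose (11.4%) and 10 fell (28.6%), with a median of -0.04. Acss2, which makes acetyl-CoA from acetate, had 7.14 and 7.13 CPM in the shMettl3 libraries, against 15.5 and 17.7 CPM in the Control libraries. Por, the reductase that supplies electrons to Sqle and Cyp51 proteins, fell by 0.64 (SE 0.07). Of all tested genes 29.6% rose with library size alone, 27.2% with log2(FPKM + 1) and 32.04% with TPM. The shares that fell were 16.6%, 15.9% and 13.74%. Of the 35 enzymes, 9 rose with library size alone, 7 with FPKM and 11 with TPM, where 9, 9 and 7 fell. Without Control replicate 1, 6 rose and 15 fell, and without Control replicate 2, 7 rose and 9 fell.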

How the data were processed

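RNA-seq of 4 RAW264.7 libraries was analysed, 2 of shMettl3 and 2 of Control, grouped by title. The labels' protocols describe oligo-dT priming, template switching, PCR and single-end reads of 50 bases, and name no molecular identifiers. For each gene and library the authors deposited FPKM and TPM values beside the estimated count. The submitters' processing notes name HISAT2 2.0.4, Bowtie2 2.2.5, RSEM 1.2.12 and mm9, with no role or order. The sources used here name neither the annotation nor a strand setting. The deposited estimated counts are not normalized and not whole for 1808 genes. The authors' FPKM values are scaled to length and library size, and their TPM values to length and then to a fixed total.

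Estimated counts were rounded and tested with edgeR 4.0.16 (R 4.3.3), using TMM factors, robust quasi-likelihood fitting and a filterByExpr filter by group with minimum count 10 and minimum total 15. Benjamini-Hochberg adjustment ran over every tested gene. Standard errors divide the log2 fold change by the root of F, and 95% intervals use the fit's degrees of freedom. Residual degrees of freedom were 2, with a median prior of 9.07. In simulated data with 11035 genes, 107 were changed by 0.5 and 93 by 1 on the log2 scale. The edgeR test recovered 65.4% of the changes of 0.5 and 91.4% of those of 1, and made 25 false calls among unchanged genes. Far fewer genes were changed in that simulation than the 43.7% called in these data. Chi-square over its degrees of freedom was 4.15 between the shMettl3 libraries and 11.5 between the Control libraries, so neither pair agreed within sampling noise.

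Alternatives were RLE factors, library size alone, DESeq2 1.42.0, limma-voom (limma 3.58.1), edgeR without robust fitting, no filter, a mean of at least 5 CPM, limma on log2(FPKM + 1), log2(FPKM + 0.1) and log2(TPM + 1), a replicate block, leaving out each library, and a test against a 1.5-fold change. The 32 genes and all lists were chosen with earlier results of these data known. All 32 are described. Of each further list other than the cell type markers at most 4 genes could be named. These were the called ones of largest change whose groups do not overlap and whose higher group reaches 10 CPM. The table has 0 columns of other samples. A further gene eligible by this rule is not reported here. Coordinates are given only for the printed RefSeq promoter windows, on GRCm38.p6.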

Additional observations from a re-analysis of the deposited data

How the results depend on the processing

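Of the 18 called genes, 10 kept their call and direction in every refit other than the test against a 1.5-fold change: Pmvk, Idi1, Fdps, Tm7sf2, Nsdhl, Sc5d, Insig1, Srebf2, Fads2 and Scd1 (Tm7sf2 has no value with a mean of at least 5 CPM). None of the 18 turned direction in any alternative run. Directions that turned were all of genes not called: with TPM Scap (0.042), and in fits without 1 library Fdft1 (-0.076 to 0.28), Hsd17b7 (-0.035 to 0.13), Elovl6 (-0.0051 to 0.24) and Acat2 (-0.44 to 0.042). In these the first 3 turned without Control replicate 1 and Acat2 without Control replicate 2. The number of the 32 genes that fell ranged from 7 to 20 over the fits that left out 1 library and the number that rose from 4 to 7, with a median log2 fold change between -0.38 and -0.084 and between 3095 and 5324 genes called in all. With TPM the median was -0.061. The cause of these shifts was not tested. In the test against a 1.5-fold change, which is stricter by construction, 952 genes were called, and 2 of the 32 fell and 0 rose. DESeq2 called 3475 genes, of which 4 of the 32 rose and 14 fell. A fit without a library leaves a group with 1 library, which is assumed to vary like the other group.

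The titles share replicate numbers but no label says that a number marks a shared culture or day. Over genes, the deviations of same-numbered libraries had a correlation of 0.17, from 2 pairs. With the replicate block 5116 genes were called, 7 of the 32 genes rose and 16 fell, and their median was -0.21. Depth limits Tm7sf2 most, with 18 to 54 counts a library.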

Other observations

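Of 19 tested genes that take up, store or export cholesterol 5 rose and 6 fell, with a median log2 fold change of 0.06. These shares were 26.3% and 31.6%, against 21.4% up and 22.3% down of all tested genes. Lrp1, a large endocytic receptor, had 452 and 486 CPM in the shMettl3 libraries, against 995 and 1055 CPM in the Control libraries (log2 fold change -1.13, SE 0.07). Lipa, the lysosomal acid lipase that frees cholesterol from its esters, had 350.0 and 335 CPM in the shMettl3 libraries, against 643 and 526 CPM in the Control libraries (log2 fold change -0.77, SE 0.10). Mylip, a ubiquitin ligase for lipoprotein receptors, had 14.9 and 14.5 CPM in the shMettl3 libraries, against 10.1 and 9.46 CPM in the Control libraries, a rise of 0.59 (SE 0.12). The numbers that rose were 7 with library size alone and with TPM, where 29.6% and 32.04% of all tested genes rose.

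Of 21 tested genes that assemble triglyceride and phospholipid, 6 fell (28.6%) and 1 rose (4.76%), with a median of -0.12, against 22.3% and 21.4% of all tested genes. Plin2, which coats lipid droplets, had 197 and 211 CPM in the shMettl3 libraries, against 331 and 325 CPM in the Control libraries (log2 fold change -0.69, SE 0.07). Pcyt1a, the enzyme that sets the rate of phosphatidylcholine synthesis, was the gene that rose, with 52.4 and 55.2 CPM in the shMettl3 libraries, against 36.5 and 41.9 CPM in the Control libraries (0.46, SE 0.09). With TPM 2 of these genes fell and 3 rose, where 13.74% of all tested genes fell and 32.04% rose. With FPKM or library size alone 4 of these genes fell and 3 rose. Without Control replicate 1, 7 fell and 2 rose.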
